A study of Homo sapiens with 8 samples.

Results

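Prostaglandin E2 and lipid enzymes were examined in A375 cells, a human melanoma cell line, after knockdown of the mitotic kinase PLK1. The genes are PTGS2 and PTGES, which make prostaglandin E2, AGMO, which breaks down ether lipids, and ACSL5, which activates fatty acids. They were chosen by their measured values in this same comparison, as rows of the authors' deposited table of transcript clusters past 2-fold, so their differences are a description and carry no test. Each of the 4 genes has 1 cluster there, out of 491 clusters and 305 gene symbols. A transcript cluster gathers the probes of 1 transcribed locus on the Affymetrix Human Transcriptome Array 2.0.

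The tested cells were A375 shPLK1, which carry a lentiviral shRNA against PLK1 that doxycycline switches on, and the control cells were A375 shNS, which carry an inducible lentiviral nonsense shRNA. Both lines received doxycycline for 48 h before RNA was isolated. The labels give 4 arrays of shPLK1 and 4 of shNS as biological replicates, while the methods speak of fewer, and all 8 were used. The deposited table compares groups headed 5d and NS, and 5d, which the sources used here do not define, was taken as shPLK1. The paper describes its shNS and shPLK1 lines as stable polyclonal pools. It gives the cells of the arrays as made earlier, and whether they were such pools is not stated. Which of the listed PLK1 shRNA clones they carry is not stated either. The 2 groups are separate cell lines, so the line and the knockdown cannot be told apart, and in bulk RNA fewer cells with a transcript and less transcript per cell cannot be told apart either.

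Cyclooxygenases take arachidonic acid, released from membranes by phospholipase A2, and turn it into prostaglandin H2, the common precursor of all prostanoids. PTGS1 is the constitutive enzyme, and PTGS2 the one that growth factors, cytokines and stress induce in many tissues. Prostaglandin E synthases then isomerize prostaglandin H2 to prostaglandin E2, and PTGES, the microsomal enzyme that uses glutathione, is inducible and often coupled to PTGS2. Prostaglandin E2 acts through the receptors PTGER1 to PTGER4 and is known in tumours for effects on growth, blood vessels and immune cells. AGMO cleaves the ether bond of alkylglycerols with tetrahydrobiopterin as its cofactor, and ACSL5 joins long-chain fatty acids to coenzyme A, the step before they enter lipid synthesis or oxidation.

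The start regions of the 2 prostaglandin E2 genes are shown because the RNA signal of these neighbouring steps of 1 pathway was lower for both. Both are the 250 bases before the RefSeq start on GRCh38.p14, 5′ to 3′ on the minus strand of the gene, at chr1:186680424-186680673 for PTGS2 and chr9:129753043-129753292 for PTGES. Capitals mark matches to the motifs searched on both strands, which were TATAAA (the TATA box), TGACGTCA and its shorter form TGACG (cAMP response element), TGANTCA (AP-1), CACGTG (E-box), GGGCGG (GC box), CCAAT, and the NF-kB consensus. TGACG lies within TGACGTCA, so these overlap.
PTGS2: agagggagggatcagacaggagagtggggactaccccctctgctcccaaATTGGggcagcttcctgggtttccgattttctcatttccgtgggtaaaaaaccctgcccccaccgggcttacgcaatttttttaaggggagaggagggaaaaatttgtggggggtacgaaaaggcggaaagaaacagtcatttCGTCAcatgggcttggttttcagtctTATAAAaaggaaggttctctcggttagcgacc
PTGES: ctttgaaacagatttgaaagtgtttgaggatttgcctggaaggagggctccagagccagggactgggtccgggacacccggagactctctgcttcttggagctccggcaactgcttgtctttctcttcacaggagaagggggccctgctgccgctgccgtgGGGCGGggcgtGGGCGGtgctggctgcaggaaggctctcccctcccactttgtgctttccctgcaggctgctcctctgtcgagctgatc
PTGS2 held TATAAA 32 to 27 bases before the start, TGACG on the other strand at 58 to 54 and CCAAT on the other strand at 201 to 197. Of 34943 human windows of this length and position, 10.8% held TATAAA, 21.2% TGACG and 32.0% CCAAT. PTGES held GGGCGG at 89 to 84 and again at 78 to 73 bases before the start, a motif found in 42.5% of the windows. None of the motifs was shared by PTGS2 and PTGES, and none was found before the RefSeq start of AGMO or before either of the 2 starts of ACSL5. The motifs found in none of the 4 genes were also the rarer ones, with TGACGTCA in 1.63% of the windows, CACGTG in 6.32%, TGANTCA in 6.59% and the NF-kB consensus in 9.95%. G and C made up 50.4% of the PTGS2 window, 61.2% of the PTGES window and 40.4% of the AGMO window, and 50% and 48.8% of the 2 ACSL5 windows, against a median of 58% over all windows. A match is only an exact match of letters, and near matches were not counted, so a motif not found does not mean that no such site exists. The arrays did not measure binding of any factor.

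PTGS2, the inducible cyclooxygenase, averaged 4.51 in shPLK1 and 8.0 in shNS on the log2 scale of the authors' bi-weight averages. The difference was -3.49, which is 11.2-fold lower in shPLK1 (11.2 to 11.3 when the rounding of the averages to 0.01 is allowed for). Among the 491 clusters this was the 6th largest difference in either direction, and 98.8% of the clusters had a smaller one. The deposited averages carry neither a spread nor values by array, so no error of the averages themselves can be given.

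PTGES, the synthase of the next step, averaged 7.59 in shPLK1 and 9.52 in shNS, a difference of -1.93 or 3.81-fold lower in shPLK1. It was the 97th largest difference of the table and the 85th among the 306 lower clusters, whose median difference was -1.47. The RNA signal of these prostaglandin E2 genes was therefore lower for both, while the enzymes and prostaglandin E2 were not measured by the arrays. PTGS2 was lower by 1.56 log2 units more than PTGES (the PTGS2 difference minus the PTGES difference was -1.56), and this gap was not tested. Signals of different clusters come from different probes, so the levels of PTGS2 and PTGES were not set against each other.

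AGMO, the alkylglycerol monooxygenase, averaged 5.29 in shPLK1 and 8.02 in shNS. Its difference of -2.73, or 6.63-fold lower in shPLK1, was the 20th largest of the table and the 19th among the lower clusters. ACSL5 was the one gene of the 4 with the higher average in shPLK1, at 7.02, against 5.54 in shNS. Its difference of 1.48, or 2.79-fold higher, ranked 193rd in the table and 45th among the 185 higher clusters, whose median difference was 1.24. Thus 3 of the 4 genes were lower in shPLK1, beside 62.3% of all clusters of the table. Nothing is read from this count, since the genes were picked from that table. The values just inside the table's limit were -1.0 for INHBA and 1.01 for PTX3, and values outside it were not used here.

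**Figure D1:**
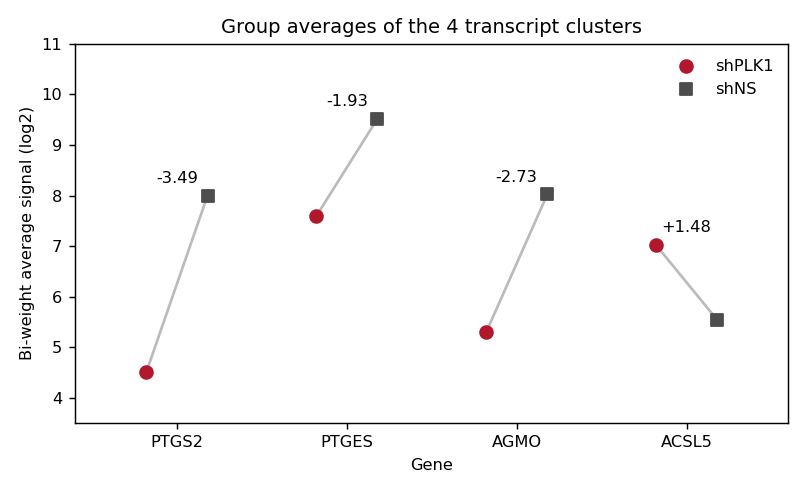
Bi-weight average signal (log2) of the transcript clusters of PTGS2, PTGES, AGMO and ACSL5 in shPLK1 (red circles) and shNS (grey squares), 1 authors' average per group without error bars. The numbers are shPLK1 minus shNS, from -3.49 for PTGS2 to 1.48 for ACSL5.

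**Figure D2:**
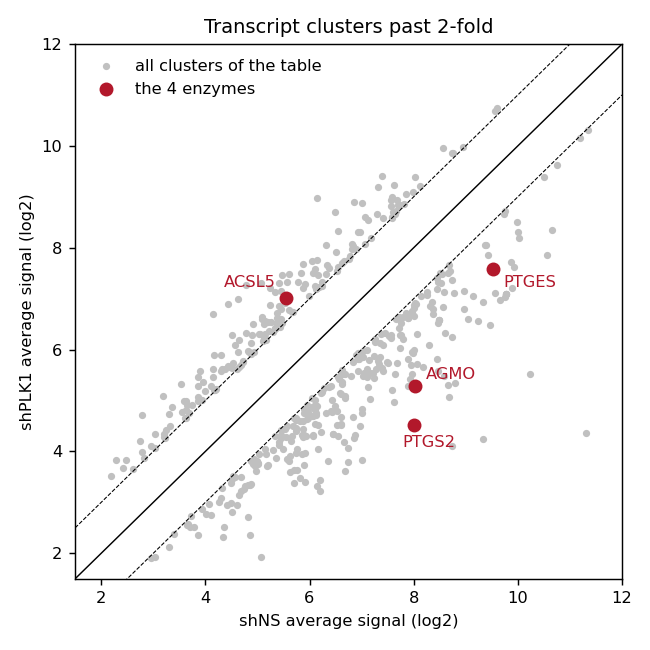
Average log2 signal in shPLK1 (vertical axis) against shNS (horizontal axis) for the 491 clusters of the deposited table, with the 4 enzymes in red. The solid line marks equal averages and the dashed lines 2-fold, and PTGS2 lies far below the lower dashed line while ACSL5 lies just above the upper one.

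Since values by array could be linked to no gene, the spread was taken from the exon probe sets of the 8 arrays, which are single exon regions without gene names. Within 0.25 log2 units of the PTGS2 average, single exon probe sets had a median SD between arrays of 0.259 in shPLK1 (36393 probe sets) and 0.141 in shNS (26620 probe sets). The 95th percentile of these SDs was 0.554 in shPLK1 and 0.296 in shNS. The PTGS2 difference was 6.30 times the larger of these 95th percentiles, that of AGMO 5.58 times, that of PTGES 4.98 times and that of ACSL5 3.31 times. The genes come from a table of differences past 2-fold, so these ratios were largely set by that choice and are given as a scale only. For PTGES the median SDs were 0.183 in shPLK1 and 0.118 in shNS, for AGMO 0.235 in shPLK1 and 0.141 in shNS, and for ACSL5 0.193 in shPLK1 and 0.216 in shNS. A cluster combines many probes, so its own spread can differ from that of 1 exon.

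The exon probe sets that started from the same shNS level as each gene give a further scale for its difference. Genes chosen past 2-fold must lie in the tail of such a distribution, so their shares are a description and nothing is read from them. Of the 26620 exon probe sets near the shNS average of PTGS2, 31 (0.116%) differed by -3.49 or further, and their median difference was -0.01. Near the shNS level of AGMO, 72 of 26474 (0.272%) were as far below, near that of PTGES 74 of 14630 (0.506%), and near that of ACSL5 205 of 41155 (0.498%) were as far above. Probe sets of the 4 genes themselves may be among these. Over all 573909 exon probe sets, 1.05% had a mean past 2-fold lower in shPLK1 and 0.821% a mean past 2-fold higher.

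**Figure D3:**
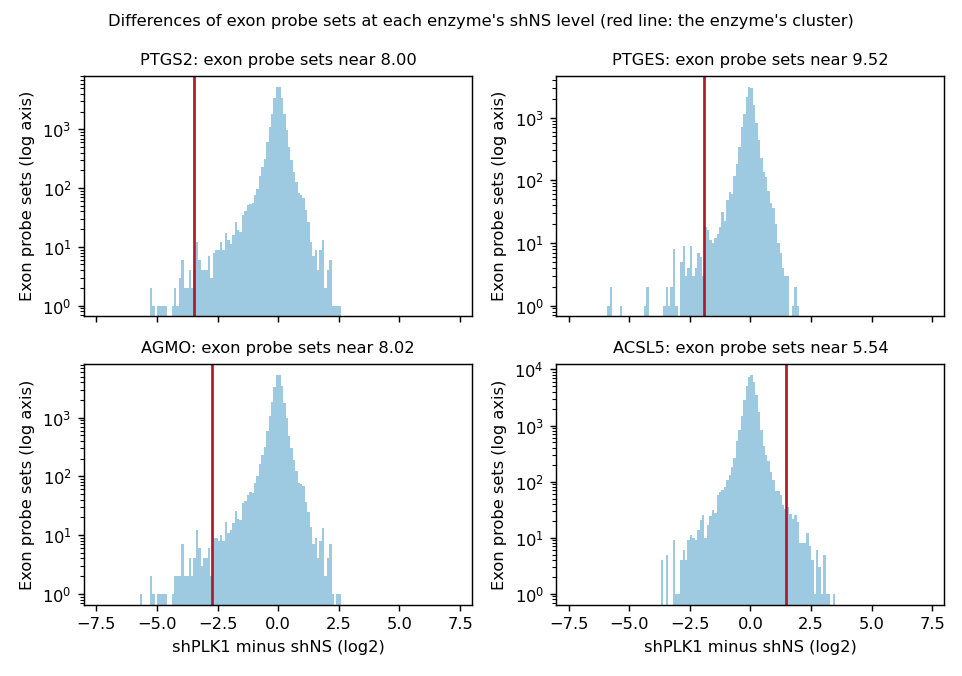
Number of exon probe sets (log axis) by their difference shPLK1 minus shNS (log2, bins of 0.1), for the probe sets within 0.25 of the shNS average of each enzyme. The red line is the enzyme's cluster difference, which lies in the lower tail for PTGS2, PTGES and AGMO and in the upper tail for ACSL5, as the choice of the genes past 2-fold requires.

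The low averages of PTGS2 and AGMO in shPLK1 lay within the values covered by the background controls. These are 23 probe sets without a human target, sorted by the number of G and C bases of their probes, with means of 1.31 to 10.8 in shPLK1 and 1.41 to 10.8 in shNS. The PTGS2 average was above 13 of the 23 in shPLK1 and above 19 in shNS, and the AGMO average above 15 in shPLK1 and 20 in shNS. For ACSL5, the gene with the higher average in shPLK1, the numbers were 18 in shPLK1 and 15 in shNS, and for PTGES 19 in shPLK1 and 22 in shNS. The PTGS2 average was above the means of 36.8% of exon probe sets in shPLK1 and 81.8% in shNS. The AGMO average was above 47.3% in shPLK1 and 81.9% in shNS. Controls and exon probe sets are single probe sets and clusters are summaries, so this is a placement on the signal scale only. Background adds to both groups and its part in the folds was not tested.

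The other genes of the prostanoid pathway were looked for in the deposited table. It holds 1.15% of all RefSeq coding genes, so most genes of any list are absent from it. PTGS2 and PTGES were chosen from it, and nothing is read from the counts that follow. Of 23 enzymes that release arachidonic acid or make and degrade prostanoids, PTGS2 and PTGES alone were listed, both lower. The constitutive PTGS1, the other E synthases PTGES2 and PTGES3, the cytosolic phospholipase PLA2G4A and the degrading dehydrogenase HPGD had no cluster there. None of 12 prostanoid receptors and transporters, among them PTGER1 to PTGER4 and the exporter ABCC4, and none of 13 genes of the lipoxygenase pathway was listed. A gene missing from the table may have differed by less than 2-fold, missed the p-value limit of the authors or have no cluster, so its absence is no measured lack of change.

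ACSL5 was the 1 listed gene of 13 long-chain acyl-CoA synthetases and fatty acid transport proteins, and its relatives ACSL1, ACSL3, ACSL4 and ACSL6 had no cluster in the table. AGMO was the 1 listed gene of 20 in ether lipid and tetrahydrobiopterin metabolism. GCH1, the first enzyme of tetrahydrobiopterin synthesis, and AGPS, which forms the ether bond, were not listed. No gene was listed of 50 in fatty acid and glycerolipid metabolism, which include FASN, SCD, CPT1A and DGAT1. With 1.15% of RefSeq coding genes in the table, and ACSL5 and AGMO chosen from it, nothing is read from these counts.

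Genes that the same stimuli often induce together with PTGS2 did not all run in its direction. Of 34 such genes 4 were listed, 2 lower and 2 higher, where the table holds 1.15% of RefSeq coding genes. The list was chosen with earlier results of these data known, so nothing is read from this count. The median over the 6 clusters of these genes was -1.03, against -1.12 over all 491 clusters. MMP1 alone has a coding and 2 noncoding clusters among the 6, so this median is mostly that of MMP1. NR4A2, an orphan nuclear receptor of the immediate early response, averaged 5.49 in shPLK1 and 6.79 in shNS. The collagenase MMP1 averaged 9.39 in shPLK1 and 10.5 in shNS in its coding cluster, and its 2 noncoding clusters each differed by -1.03. CCL2, a chemokine that attracts monocytes, went the other way with 8.98 in shPLK1 and 6.15 in shNS, the highest difference of the table at 2.83. PTX3, a secreted pattern recognition protein, averaged 5.66 in shPLK1 and 4.65 in shNS.

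Among the 372 clusters with a gene symbol, those whose pair of averages lay nearest to each enzyme were named by Euclidean distance over the 2 group averages. Clusters without a symbol were not searched and may lie closer. For ACSL5 the nearest was SPTLC3, a subunit of serine palmitoyltransferase, which starts sphingolipid synthesis from an acyl-CoA, with 6.91 in shPLK1 and 5.52 in shNS (distance 0.11). The next was the netrin receptor DCC, with 6.86 in shPLK1 and 5.41 in shNS. For PTGES they were SPP1, which encodes osteopontin (7.86 in shPLK1 and 9.43 in shNS, distance 0.28), and the homeobox gene MEOX2 (7.63 in shPLK1 and 9.93 in shNS, distance 0.41). PTGS2 had no close match among the clusters with a gene symbol. The nearest to it were TENM2, a teneurin of the cell surface, at a distance of 0.59 and AGMO at 0.78. For AGMO the nearest were the uncharacterised transcripts XXbac-B33L19.4 (distance 0.16) and RP11-408N14.1 (distance 0.25). Likeness over 2 averages says only that level and difference were alike.

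The genes around each enzyme were looked up in the table, a step chosen after the values were seen. Within 2 Mb of AGMO on GRCh38.p14, RefSeq has 12 other protein-coding genes, and 2 of them were in the table, both lower, where the table lists 1.15% of all RefSeq coding genes and 62.3% of its clusters were lower. MEOX2, the homeobox gene named above, differed by -2.30 (4.93-fold lower), and TSPAN13, a tetraspanin, averaged 6.80 in shPLK1 and 8.97 in shNS, a difference of -2.17. The antisense transcript MEOX2-AS1 also differed, by -1.36. Within 2 Mb of PTGS2, 1 of 12 other coding genes was listed, the matrix protein gene HMCN1, with 3.34 in shPLK1 and 4.82 in shNS. None of 78 coding genes around PTGES and none of 23 around ACSL5 was listed. DNA copy number was not measured here.

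As a whole, the chromosomes that carry the 4 genes differed between the groups by -0.067 to 0.019 log2 units. To measure this, each exon probe set averaging 7 or more was centred on its own 8-array mean, and the median per chromosome was taken in each array and set relative to the median of the 23 chromosomes together. On chromosome 1, the chromosome of PTGS2, the 4 shPLK1 arrays lay between -0.046 and -0.020 and the 4 shNS arrays between 0.023 and 0.039, so the groups did not overlap. The difference was -0.067 (standard error 0.006), with an adjusted p of 9.1e-06 by limma, adjusted across 23 chromosomes. On chromosome 9, which carries PTGES, the shPLK1 arrays lay between 0.003 and 0.014 and the shNS arrays between -0.017 and -0.006, again without overlap. That difference was 0.019 (standard error 0.005, adjusted p = 0.0045 from limma), the opposite direction to PTGES, and without the limit on signal it was 0.008 with an adjusted p of 0.088 from limma. On chromosomes 7 and 10, which carry AGMO and ACSL5, the arrays of the groups overlapped and the adjusted p was 0.84 from limma for each. The shifts of the other chromosomes are not given here, so whether chromosomes 1 and 9 stand out among the 23 is not shown. The part of any local change in DNA was not tested.

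**Figure D4:**
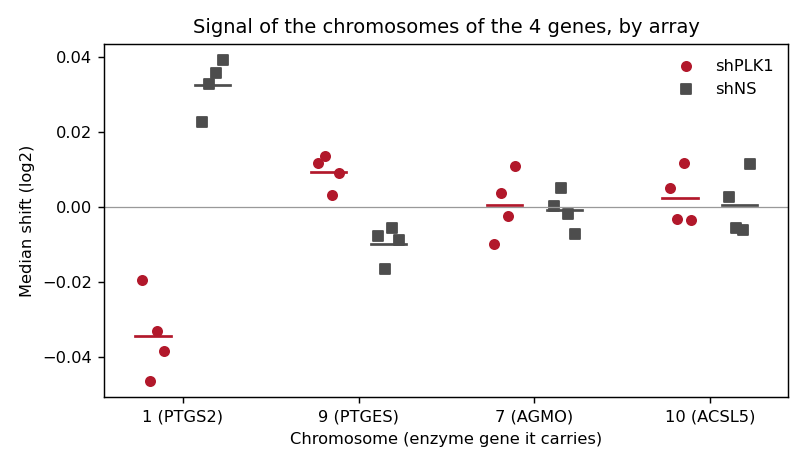
Median log2 shift of the chromosomes that carry the 4 enzyme genes, 1 point per array, with shPLK1 in red circles and shNS in grey squares and the mean of the 4 arrays as a bar. The groups lie apart on chromosomes 1 and 9 and overlap on chromosomes 7 and 10, and all points lie within 0.05 of 0.

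Single exon probe sets of these chromosomes were called at rates near that of the whole array. At an adjusted p under 0.05 from limma, 4.19% of all exon probe sets were called in either direction, 11422 higher and 12624 lower in shPLK1. The share was 4.29% on chromosome 1, 5.18% on chromosome 9, 4.17% on chromosome 7 and 4.46% on chromosome 10. On chromosome 1, 754 exon probe sets (1.32%) were called higher and 1701 (2.97%) lower in shPLK1. On chromosome 9, 479 (2.09%) were called higher and 705 (3.08%) lower. The calls on both thus ran mostly lower, more so than over the whole array. On chromosome 9 this was so while its median shift was above 0. On chromosome 7, 651 were called higher and 615 lower, and on chromosome 10, 570 higher and 478 lower. In the deposited table, 32 of the 45 other clusters of chromosome 1 were lower in shPLK1, 27 of 41 on chromosome 9, 15 of 21 on chromosome 7 and 5 of 17 on chromosome 10. Of all clusters listed, 62.3% were lower.

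The 8 arrays resembled each other closely, with a Pearson correlation, taken over exon probe sets (no independent replicates), of 0.986 to 0.991 within shPLK1, 0.988 to 0.991 within shNS and 0.979 to 0.985 between them. PLK1 has no cluster in the deposited table, so its knockdown was not checked here. Of 7 markers of the melanocyte lineage the table lists ERBB3, with cluster differences of -2.77 to -2.12. It lists none of 18 markers of fibroblasts, keratinocytes, leukocytes and endothelium. With 1.15% of RefSeq coding genes in the table, nothing is read from these counts. A table of changes cannot show whether a marker is present, so the identity of the cells was not checked either.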

How the data were processed

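Per the study's methods and the submitters' processing notes, the authors processed the arrays by RMA (background correction, quantile normalization, probe summary) in the Affymetrix Transcriptome Analysis Console. The deposited values by array are on the log2 scale and cover 573909 exon and 339146 junction probe sets, with 1530 controls, none paired with a gene name. The authors' deposited table gives log2 bi-weight averages of each group for 491 clusters; its fold and p-value columns hold the authors' own comparison and were not used. Builds and annotation are not given in the sources used here.

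Differences are the shPLK1 average minus the shNS average. limma (3.58.1, R 4.3.3, data.table version 1.17.8) was fitted to all exon probe sets with group as the only term and Benjamini-Hochberg adjustment, and to the medians of the 23 chromosomes, read from the probe set IDs. p-values set the group difference against the spread between arrays within each of the 2 cell lines. Each group is a single line, so the p-values say nothing on variation between independently made lines. All 4 gene symbols matched RefSeq. The genes and lists were chosen with earlier results of these data known. Named are the 4 genes, listed genes with a cluster, and the 2 nearest clusters with a gene symbol. Others are said to be chosen later. Alternatives were junction probe sets, a signal filter, repeated quantile normalization, each array left out and the replicate number as a block. The number of arrays limits the precision.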

Additional observations from a re-analysis of the deposited data

How the results depend on the processing

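The averages of the 4 genes are the authors' and have no alternative processing here. Over clusters with a gene symbol alone, the rank of the difference was 82 for PTGES, 18 for AGMO and 149 for ACSL5, and PTGS2 stayed 6th. The chromosome 9 shift lost its call over exon probe sets of all levels (0.00796, adjusted p = 0.088 from limma); the cause was not tested. With each array left out in turn, the shift ranged from -0.0712 to -0.0622 on chromosome 1, 0.0157 to 0.0203 on chromosome 9, -0.00182 to 0.00478 on chromosome 7 and -0.00131 to 0.00471 on chromosome 10. The sign turned without shPLK1 replicate 4 on chromosome 7 and without shPLK1 replicate 3, shNS replicate 2 or shNS replicate 3 on chromosome 10, where neither shift was called with all arrays. Exon probe sets called numbered 8140 to 9614 higher and 9800 to 11198 lower with 1 array left out, against 11422 and 12624 with all. The values showed no pairing of the arrays by replicate number: deviations of same-numbered arrays correlated at -0.145 to 0.0415, and 0 of 4 shPLK1 arrays matched best with their own number. With so few arrays this cannot show whether they were cultured or handled in pairs. With the replicate number as a block, 8077 were called higher and 9161 lower, and the 4 chromosome shifts kept their side of the threshold. Of 48 alternative chromosome shifts, 43 kept their direction and side of the threshold, 4 turned sign and 1 lost its call, all named above. All 24 alternative counts of called exon probe sets stayed within 1.5 times those first given. The lower averages of PTGS2, AGMO and ACSL5 lay above 13, 15 and 15 of the 23 background controls, and the part of background in their folds was not tested.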

Other observations

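Other lipid genes of the deposited table, picked by name after the values were seen, ran in both directions. CYP4F11, a cytochrome P450 that hydroxylates long-chain fatty acids, averaged 6.21 in shPLK1 and 5.12 in shNS. GDPD1, a phosphodiesterase that acts on lysophospholipids, averaged 5.53 in shPLK1 and 6.61 in shNS.

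Some prostaglandin E2 receptors signal through cyclic AMP, and genes of cyclic nucleotide signalling were in the table, of which 4 were also picked after the values were seen. PDE4B, a phosphodiesterase of cyclic AMP, averaged 4.30 in shPLK1 and 5.34 in shNS. PDE2A, a phosphodiesterase that cyclic GMP stimulates, averaged 7.47 in shPLK1 and 6.17 in shNS in a cluster classed as noncoding. PKIA, an inhibitor of protein kinase A, averaged 5.82 in shPLK1 and 6.95 in shNS, and CREB5, a factor of the cAMP response element family, 6.90 in shPLK1 and 4.43 in shNS, both in noncoding clusters. None of these was tested.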
